A study of Callithrix jacchus with 20 samples.

Results

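The genes described here encode nuclear-encoded subunits of the oxidative phosphorylation (OXPHOS) complexes. They were taken by symbol from the count tables, as the NDUFA, NDUFB, NDUFC, NDUFS and NDUFV genes, SDHA to SDHD, the genes beginning with UQCR, the COX4 to COX8 genes and the genes beginning with ATP5. Of 25102 genes in the tables, 64 had such a symbol: 36 of complex I, 4 of complex II, 2 of complex III, 5 of complex IV and 17 of complex V. NDUFA4 was counted with complex IV, of which its product is a subunit despite its name. A low-count filter left 61 of them among 15797 genes tested. The other 3, all of complex IV, were COX6A2 (0 to 8.93 normalised counts across libraries), COX7B2 (at 0 in all libraries but 1, which had 0.547) and COX8C (0 to 1.69). Complex III was represented only by UQCR10 and UQCRQ, and complex IV among the tested genes only by COX8A and NDUFA4. The remaining subunits of these complexes are not part of this set. Several, among them UQCRC1, UQCRFS1, COX5A and COX6C, were absent from the deposited counts under these symbols. A few others, such as CYC1 and COX3, are described below with other lists.

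RNA-seq was performed on the common marmoset iPSC line DPZ_cjiPSC2 (DPZ_cjiPSC#2 in the study), in 10 conditions with 2 biological replicates each. cjiPSCs were grown in TESR medium or in cjPSCM. From each culture, precursors of mesendoderm (pre-ME) were induced with the GSK3 inhibitor CHIR and the ROCK inhibitor Y-27632, with or without Activin A (ActA). From cjPSCM-derived pre-ME, embryoid bodies were grown with BMP4, LIF, SCF and EGF to day 4, and a double-positive fraction (cjPGCLCs) and a double-negative fraction (somatic cells) were sorted. The ActA condition of a sorted fraction is that of the pre-ME it came from. The study sorted on INTα6 and CXCR4, while the labels name EpCAM among the markers. The labels call the replicates biological and the study describes them as independent. All libraries came from this 1 line, so the p-values measure only the spread between libraries of that line.

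The respiratory chain passes electrons from NADH through complex I, or from succinate through complex II, to ubiquinone, and from there through complex III and complex IV to oxygen. Complexes I, III and IV pump protons across the inner mitochondrial membrane, and complex V, the ATP synthase, uses the gradient to make ATP. Complex II is also the succinate dehydrogenase of the TCA cycle and is encoded by nuclear genes alone, whereas the other complexes combine nuclear-encoded subunits with subunits made from mitochondrial DNA. Pluripotent stem cells are known for a strong reliance on glycolysis, and the balance between glycolysis and respiration shifts as they differentiate.

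The libraries held 4784964 to 22067099 reads on genes, and the 61 tested members with the 3 untested ones took 0.409% to 0.839% of these. The summed normalised counts of 8 cjPGCLC markers were 5626 to 7140 in the double-positive and 1722 to 1976 in the double-negative libraries. CXCR4, a marker of the sort, was at 1128 to 1317 and 49.5 to 76.1. Both CXCR4 and ITGA6, the genes of the study's sort markers, are among the 8. Their sum was 6247 to 6900 in pre-ME from cjPSCM and 9491 and 10044 in cjiPSCs in cjPSCM. In the libraries from TESR that sum was 4236 to 5090. It therefore does not set cjPGCLCs apart from cjPSCM-derived pre-ME or from cjiPSCs in cjPSCM. The mesendoderm gene TBXT was near 0 in pre-ME from cjPSCM (0 to 1.67) and at 7.95 to 55.3 in pre-ME from TESR, and EOMES was already at 329 and 536 in cjiPSCs in TESR. Both belong to a list of 5 mesendoderm markers. The summed counts of that list were 18.8 and 10.4 in cjiPSCs in cjPSCM. In pre-ME from cjPSCM they were higher, at 241 and 186 without and 935 and 622 with ActA. They were 399 and 597 in cjiPSCs in TESR and 1306 to 1957 in pre-ME from TESR. FOXA2, an endoderm transcription factor, was at 83.9 to 518 in the double-positive libraries and at 0 to 4.61 in the double-negative ones, while FOXA1 was at 0 to 16.7 and 0 to 1.49. The part of the cells or RNA behind FOXA2 in the results for cjPGCLCs was not tested.

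To set the complexes side by side across the conditions, each gene's level was expressed as log2(normalised count + 1) minus its mean over the 20 libraries, and the median over the genes of a complex was taken. Over all 61 members, this relative level was highest in pre-ME from cjPSCM without ActA, at 0.45 ± 0.28 (SD, n = 2, as below). cjiPSCs in cjPSCM were at 0.27 ± 0.29, cjiPSCs in TESR at 0.20 ± 0.15 and pre-ME from cjPSCM with ActA at 0.10 ± 0.15. Pre-ME from TESR stood at 0.07 ± 0.02 with and 0.06 ± 0.02 without ActA. The 4 sorted groups were the lowest, with cjPGCLCs at -0.22 ± 0.01 with and -0.26 ± 0.08 without ActA and somatic cells at -0.34 ± 0.04 with and -0.31 ± 0.04 without ActA. The pooled replicate SD was 0.15. Neighbours in this order lay closer together than that SD, apart from the step from unsorted to sorted groups and the step below pre-ME from cjPSCM without ActA, whose own replicates, at 0.25 and 0.65, were further apart than the step.

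In complexes I, II, III and V the mean of each unsorted group lay above that of each sorted group. Complex I was at 0.43 ± 0.26 in pre-ME from cjPSCM without ActA and at -0.34 ± 0.06 in somatic cells with ActA. Complex V was at 0.49 ± 0.29 and -0.32 ± 0.01 in these groups. For complex II, cjPGCLCs without ActA were at -0.03 ± 0.02 and somatic cells without ActA at -0.41 ± 0.08, and the libraries of these groups did not overlap. The pooled replicate SD of complex II was 0.17. Taken gene by gene, libraries of these groups did not overlap for 57.7% of all genes. No complex II gene was called between them at adjusted p under 0.05 in edgeR. For complex IV, with only COX8A and NDUFA4, the lowest group was pre-ME from cjPSCM with ActA, at -0.29 ± 0.29, and its replicates were far apart. By group mean, 37 of the 61 members were highest in pre-ME from cjPSCM without ActA, 17 in cjiPSCs in cjPSCM and 5 in cjiPSCs in TESR. Somatic cells with ActA were lowest for 21 members, somatic cells without ActA for 16 and cjPGCLCs without ActA for 10.

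**Figure D1:**
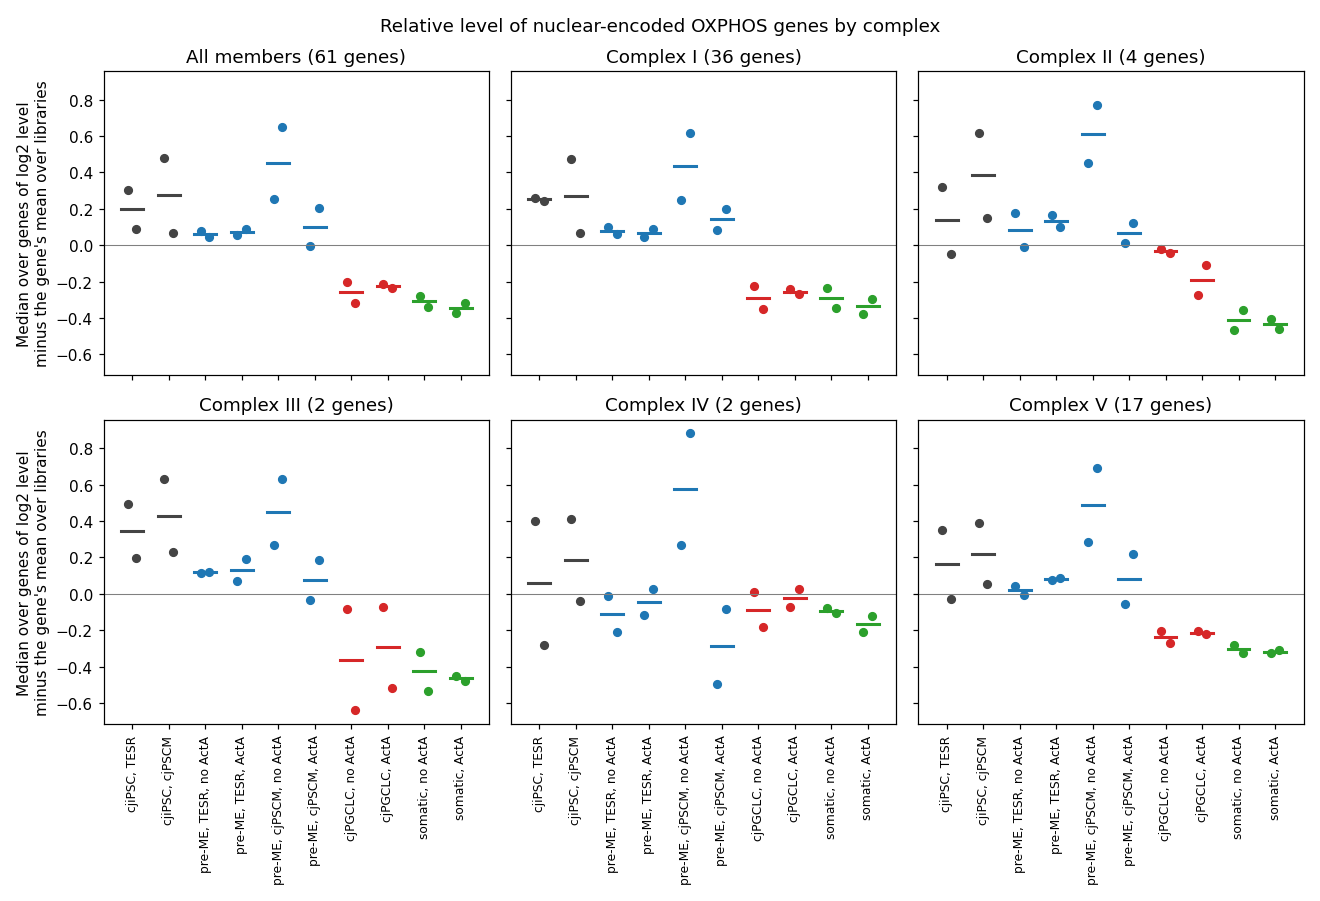
Relative level of the members of each complex in each of the 10 conditions. The y axis is the median over genes of log2(normalised count + 1) minus the gene's mean over the 20 libraries, points are the 2 libraries of a condition and lines their mean. The sorted groups (red and green) lie below 0 for all members, between -0.34 and -0.22, and the 2 libraries of pre-ME from cjPSCM without ActA are far apart, at 0.25 and 0.65.

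The comparison of sorted day 4 cells with the pre-ME they came from asked which members changed during embryoid body culture. Without ActA, 47 of 61 members were lower in cjPGCLCs than in pre-ME and none was higher (adjusted p under 0.05, edgeR, as in all calls below). Among all genes tested, 18.5% were lower and 21.5% higher. In somatic cells 52 members were lower and none was higher, against 21.7% and 20.6% of all genes. No member was higher in either fraction at an unadjusted p under 0.05, and DESeq2 gave 47 and 51 lower members, also with none higher. The median log2 fold change of the members was -0.69 in cjPGCLCs and -0.77 in somatic cells, where that of all genes was 0.01 and 0.00. All 61 fold changes were below 0 in both fractions. Pre-ME without ActA replicate 2, the library with the highest members' share, weighed on these counts: without it 28 members were lower in cjPGCLCs and 30 in somatic cells, and without replicate 1 of that group 52 and 56.

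With ActA, 25 members were lower in cjPGCLCs than in pre-ME and 2 were higher, against 23% and 25.3% of all genes. In somatic cells 32 were lower and 2 higher, against 24.2% and 23.8%. The median log2 fold changes were -0.37 and -0.47, where those of all genes were 0.04 and 0.01. With 1 library left out at a time, the median ranged from -0.47 to -0.26 in cjPGCLCs and from -0.55 to -0.41 in somatic cells. Without somatic ActA replicate 1, 19 members were lower in somatic cells. Of the 25 members lower in cjPGCLCs with ActA, 24 were among the 47 lower without it (96% and 51.1% of each list), in comparisons that share no library. NDUFV3 was the exception. For somatic cells 30 of 32 were among the 52 (93.8% and 57.7%), the exceptions being NDUFV3 and NDUFA6. Since 47 and 52 of the 61 tested members were lower without ActA, large overlaps are in part forced, and they were not tested. The sorted cells differ from pre-ME in time, culture and passage through the sorter, and these cannot be told apart here. Cell identity may differ as well. Of 8 markers of somatic cells, 4 were higher in cjPGCLCs than in pre-ME in each ActA condition, and 7 without and 6 with ActA were higher in somatic cells. With ActA their summed counts were 57315 and 46447 in cjPGCLCs, 58927 and 44835 in somatic cells and 46859 and 52568 in pre-ME. Without ActA they were 41567 and 34384, 59837 and 52815, and 21419 and 25821 in this order. In cjiPSCs in cjPSCM they were highest, at 128222 and 88510. The part of identity in the members' change was not tested. As in any bulk sample, fewer cells of a type and less RNA per cell cannot be told apart either.

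**Figure D2:**
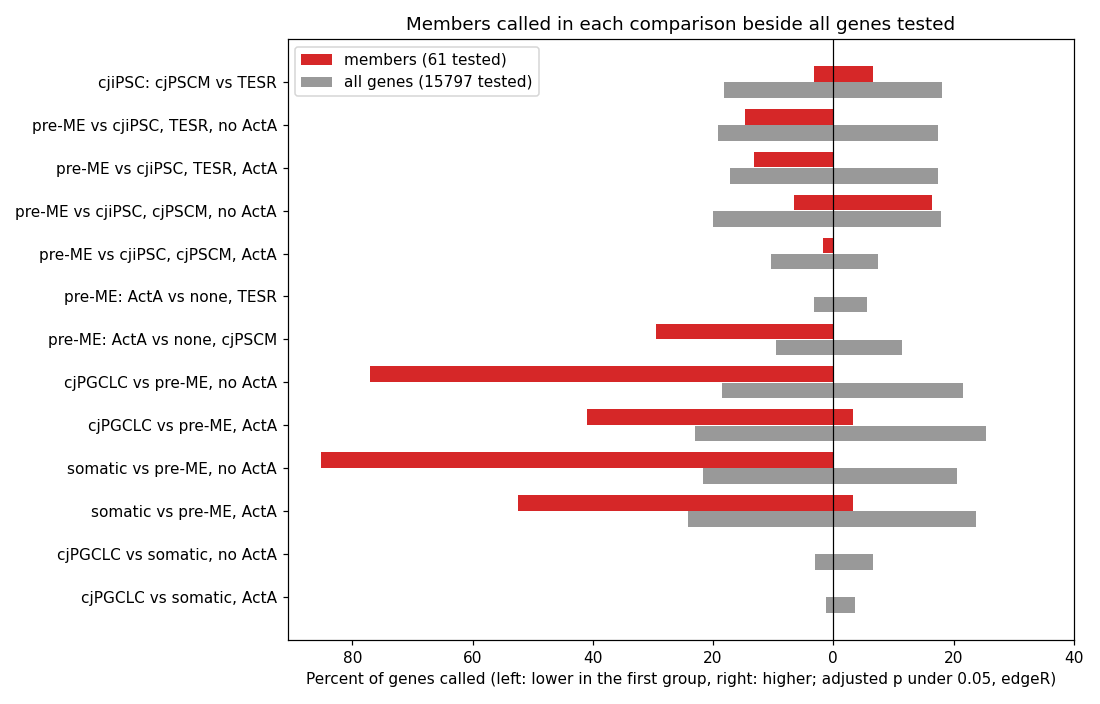
Percent of the 61 members (red) and of all genes tested (grey) called lower (left) or higher (right) in the first-named group, at adjusted p under 0.05 in edgeR. The members' bars exceed those of all genes on the left in the comparisons of sorted cells with pre-ME and in that of ActA in cjPSCM-derived pre-ME.

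Complex I takes electrons from NADH at a flavin held by NDUFV1 and passes them along iron-sulphur clusters held by NDUFV2, NDUFS1, NDUFS7, NDUFS8 and others towards ubiquinone. Of its 7 nuclear-encoded core subunits, 6 were lower in cjPGCLCs without ActA than in pre-ME and all 7 in somatic cells without ActA, while with ActA 4 of 7 were lower in each fraction. Of the 29 accessory subunits, 21 and 22 were lower without ActA and 14 and 18 with ActA.

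NDUFS7 was among the members with the largest decreases in all 4 comparisons. Its normalised counts were 1312 and 1549 in pre-ME from cjPSCM without ActA and 1520 and 1510 with ActA. They were 712 and 541 in cjPGCLCs without ActA, 611 and 596 with ActA, 586 and 470 in somatic cells without ActA and 510 and 534 with ActA. Each of the 8 sorted libraries lay below each of the 12 unsorted ones, the lowest of which was at 1081. Between a sorted fraction and its pre-ME, libraries did not overlap for 73.7% to 80.9% of all genes, which also bears on the members below. Such non-overlap was also a condition for naming the members with the largest folds. The share of all genes for sorted against all unsorted libraries was not computed. The log2 fold change from pre-ME was -1.20 ± 0.17 (SE, as below) in cjPGCLCs without ActA, or 2.29-fold lower (adjusted p = 3.91e-05, edgeR). It was -1.47 ± 0.17 in somatic cells without ActA (adjusted p = 5.76e-06, edgeR). With ActA it was -1.32 ± 0.17 in cjPGCLCs (adjusted p = 1.21e-05, edgeR) and -1.54 ± 0.17 in somatic cells (adjusted p = 3.02e-06, edgeR).

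NDUFS8 behaved alike, with 816 and 954 counts in pre-ME without ActA, 946 and 889 with ActA and 290 to 460 in the sorted libraries. The unsorted libraries, from 710 upwards, did not overlap with these. With ActA it was 2.62-fold lower in cjPGCLCs (adjusted p = 1.56e-05, edgeR) and 3.11-fold lower in somatic cells (adjusted p = 3.85e-06, edgeR). NDUFS3, a core subunit of the arm that protrudes into the matrix, fell by less but with a small error, at -0.99 ± 0.13 in cjPGCLCs without ActA (adjusted p = 1.42e-05, edgeR).

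NDUFV1, the flavin-binding subunit, was at 1234 and 1438 in pre-ME without ActA and at 803 and 860 in the cjPGCLCs derived from it. The sorted libraries ranged from 729 to 860 and overlapped with pre-ME from TESR with ActA (861 and 840) but not with pre-ME from cjPSCM. It fell by 0.70 on the log2 scale in cjPGCLCs without ActA (adjusted p = 0.00132, edgeR) and by 0.92 with ActA (adjusted p = 9.35e-05, edgeR). NDUFS1, which holds several of the iron-sulphur clusters, was at 1740 and 1776 in pre-ME without ActA and at 1231 to 1448 in the sorted libraries. Its log2 fold change was -0.48 in somatic cells without ActA (adjusted p = 0.0102, edgeR), and it passed the test in none of the other 3 comparisons (-0.33 to -0.04).

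Among the accessory subunits, NDUFA11, which lies in the membrane arm, had counts of 778 and 901 in pre-ME without ActA, 976 and 921 with ActA and 300 to 431 in the sorted libraries. No unsorted library was below 583. It fell in all 4 comparisons, by 1.15 (cjPGCLCs with ActA) to 1.41 (somatic cells without ActA) on the log2 scale. NDUFA7, NDUFA8, NDUFA10, NDUFB7 and NDUFB9 also fell in all 4, at log2 fold changes between -1.22 and -0.55. NDUFA13, NDUFS4 and NDUFA1 passed the test in none of the 4, and neither did ATP5F1E of complex V. NDUFA13, also called GRIM-19, had the smallest range of group means of all members, with 815 to 1208 counts over the 20 libraries.

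In complex II, SDHA holds the flavin that oxidises succinate, SDHB holds the iron-sulphur clusters, and SDHC and SDHD anchor both in the membrane. The 4 genes did not move alike. SDHB was at 503 and 694 in pre-ME without ActA, 411 and 400 with ActA, 319 and 298 in cjPGCLCs without ActA, 260 and 259 with ActA and 230 to 240 in somatic cells. It fell in all 4 comparisons, from -0.64 ± 0.18 in cjPGCLCs with ActA (adjusted p = 0.00829, edgeR) to -1.35 ± 0.19 in somatic cells without ActA (adjusted p = 2.75e-05, edgeR). SDHA was at 843 and 880 in pre-ME without ActA, 806 and 813 in the cjPGCLCs and 618 and 673 in the somatic cells. It fell in somatic cells, by 0.44 without ActA (adjusted p = 0.018, edgeR) and by 0.65 with ActA (adjusted p = 0.00114, edgeR). In cjPGCLCs its log2 fold changes were -0.10 and -0.25, and neither passed the test.

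SDHD had the widest swing of the anchors. Its counts were 781 and 982 in pre-ME without ActA, 347 and 414 with ActA, 393 and 378 in cjPGCLCs without ActA, 291 and 357 with ActA, 247 and 295 in somatic cells without ActA and 283 and 274 with ActA. Pre-ME without ActA stood apart from every other library of the series, of which the highest was at 527. Against it SDHD was 2.30-fold lower in cjPGCLCs (adjusted p = 0.00168, edgeR) and 3.30-fold lower in somatic cells (adjusted p = 0.000111, edgeR). With ActA the log2 fold changes were -0.23 and -0.45, with adjusted p = 0.495 and 0.188 (edgeR). SDHC followed, falling in both fractions without ActA and reaching 0.39 and 0.15 with ActA, where it did not pass the test.

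Of complex III, UQCR10, a small subunit, fell in all 4 comparisons, by 0.64 to 0.84 on the log2 scale. UQCRQ, another small subunit, fell without ActA (-0.74 and -1.07), and with ActA its log2 fold changes of -0.05 and -0.40 did not pass the test. Its replicates in the cjPGCLC groups were far apart, at 483 and 277 without ActA and 478 and 316 with ActA. In complex IV, COX8A, a small structural subunit, was at 1556 and 2002 in pre-ME without ActA, 1481 and 1616 with ActA and 914 to 1157 in the sorted libraries, below all 12 unsorted ones. It fell in all 4, by 0.58 to 0.85 on the log2 scale.

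NDUFA4 was called lower in none of the 4. Its counts were 272 and 498 in pre-ME without ActA, 99.3 and 162 with ActA and 239 to 303 in the sorted libraries. Without ActA its log2 fold changes were -0.64 in cjPGCLCs and -0.61 in somatic cells, and neither passed the test. It was higher in cjPGCLCs than in pre-ME with ActA (log2 fold change 1.10 ± 0.34, adjusted p = 0.0142, edgeR) and in somatic cells (0.93 ± 0.35, adjusted p = 0.0383, edgeR). NDUFB1, a small accessory subunit of complex I, was the other higher member, at 1.21 ± 0.35 (adjusted p = 0.00965, edgeR) and 0.94 ± 0.36 (adjusted p = 0.0385, edgeR). Without pre-ME with ActA replicate 1 no member was higher in either fraction. In somatic cells the same held without either somatic library, and in cjPGCLCs 1 member was higher without cjPGCLC ActA replicate 2.

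**Figure D3:**
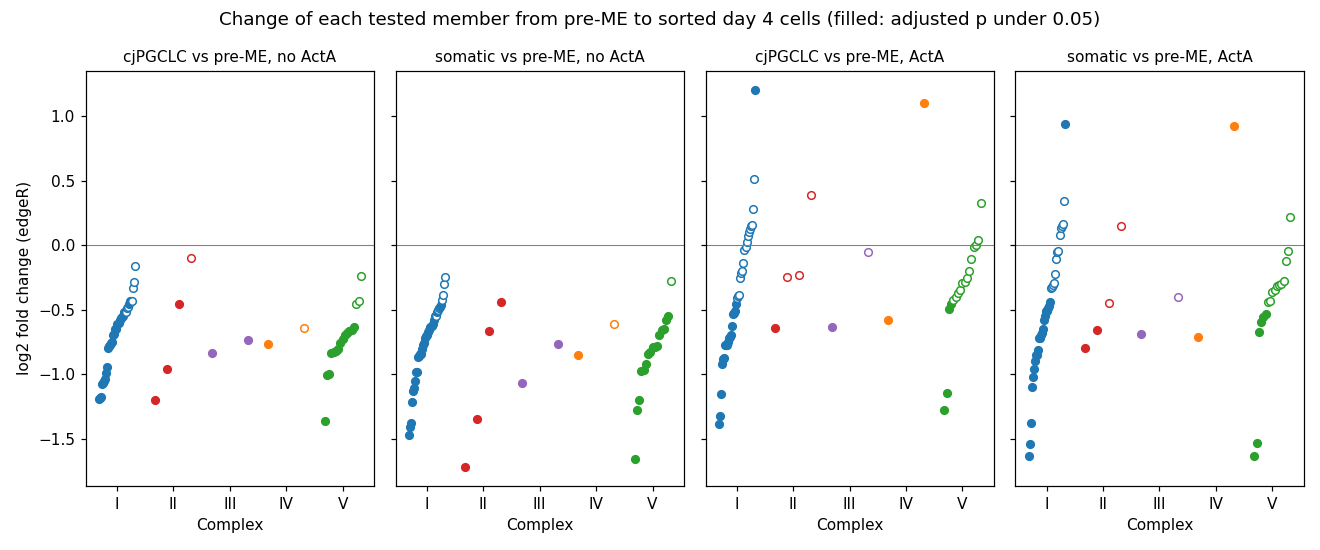
Log2 fold change (y axis, edgeR) of each of the 61 tested members from pre-ME to sorted day 4 cells, grouped by complex. Each point is a gene, filled where adjusted p was under 0.05. Without ActA (left panels) all points lie below 0, while with ActA (right panels) NDUFB1 of complex I and NDUFA4 of complex IV are filled above 0.

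The ATP synthase consists of a catalytic head, F1, in which ATP5F1A and ATP5F1B alternate around the stalk of ATP5F1C, ATP5F1D and ATP5F1E, a membrane rotor of subunit c and a peripheral stalk that holds the head still. Subunit c is encoded by ATP5MC1, ATP5MC2 and ATP5MC3, which differ in their targeting sequences but give the same mature protein. Without ActA, all 3 subunit c genes, all 4 peripheral stalk genes and all 4 genes of small membrane subunits were lower in both sorted fractions. Of the 5 F1 genes, 3 were lower in cjPGCLCs and 4 in somatic cells. With ActA, 4 of the 17 members of complex V were lower in cjPGCLCs and 6 in somatic cells, and no small membrane subunit was.

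ATP5MC1 was the subunit c gene that changed most. Its counts were 420 and 478 in pre-ME without ActA, 413 and 441 with ActA, 232 and 109 in cjPGCLCs without ActA, 233 and 146 with ActA, and 130 to 161 in somatic cells. It fell by 1.36 ± 0.28 on the log2 scale in cjPGCLCs without ActA (adjusted p = 0.00111, edgeR) and by 1.15 ± 0.28 with ActA (adjusted p = 0.00323, edgeR). In somatic cells it was 3.15-fold lower without ActA (adjusted p = 0.000343, edgeR) and 3.10-fold lower with ActA (adjusted p = 0.000311, edgeR). ATP5MC2 and ATP5MC3 fell without ActA by 0.70 to 0.97 and had log2 fold changes of -0.43 to -0.20 with ActA that did not pass the test.

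ATP5F1D, the delta subunit of the stalk, was at 871 and 1114 in pre-ME without ActA, 1141 and 1166 with ActA and 363 to 582 in the sorted libraries, again with no unsorted library as low (633 upwards). It was 2.43-fold lower in cjPGCLCs with ActA (adjusted p = 0.000414, edgeR) and 2.90-fold lower in somatic cells with ActA (adjusted p = 0.000103, edgeR). The catalytic ATP5F1B fell in all 4 comparisons, by 0.45 to 0.79. Its partner ATP5F1A fell in somatic cells without ActA (-0.58, adjusted p = 0.0125, edgeR), and with ActA it stood at 0.00 in cjPGCLCs and -0.05 in somatic cells. ATP5IF1, which inhibits the ATP synthase when it runs in reverse, fell in somatic cells with and without ActA (-0.68 and -0.65). In cjPGCLCs it was at -0.40 and -0.24 and did not pass the test.

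Since pre-ME without ActA held the highest levels, the sorted fractions were also compared with cjiPSCs in cjPSCM, a comparison added after the data had been seen. cjPGCLCs with ActA had 34 lower and 0 higher members (25.1% and 25.9% of all genes), and cjPGCLCs without ActA 34 lower and 1 higher (25.2% and 27.3%). Somatic cells with ActA had 36 lower and 0 higher (27.9% and 26%) and those without ActA 34 lower and 0 higher (28% and 26.2%). By DESeq2 the lower counts were 36, 37, 37 and 37 in this order. At an unadjusted p under 0.05, 1 member was higher in cjPGCLCs without ActA and none in the other 3. The 1 higher member was NDUFB3, a small accessory subunit of complex I, at 0.66 ± 0.26 (adjusted p = 0.0444, edgeR), which no longer passed when any 1 of the 4 libraries of the comparison was left out. ATP5F1D, with 1847 and 1052 counts in these cjiPSCs, had the largest decrease of any member in any comparison, at -1.86 ± 0.25 in somatic cells with ActA (adjusted p = 1.53e-05, edgeR). Without cjiPSCs in cjPSCM replicate 1, the counts of lower members were 22 and 21 in cjPGCLCs and 25 and 23 in somatic cells, with and without ActA. No member's log2 fold change passed 2 in any comparison.

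The sorted fractions were then compared with each other. No member differed between cjPGCLCs and somatic cells at adjusted p under 0.05 in edgeR, with ActA (3.68% of all genes higher in cjPGCLCs and 1.16% lower) or without (6.67% and 2.96%). At an unadjusted p under 0.05, 2 members were higher with ActA and 3 without, none was lower, and DESeq2 called 0 in either. The fold changes leaned to higher values in cjPGCLCs, with medians of 0.13 and 0.11 on the log2 scale (all genes 0.01 and 0.00) and 52 and 45 of 61 above 0. They spanned -0.20 to 0.53 with ActA and -0.36 to 0.54 without. The smallest adjusted p was that of SDHA with ActA (log2 fold change 0.41 ± 0.14, adjusted p = 0.128, edgeR) and that of NDUFC1 without (0.54 ± 0.21, adjusted p = 0.122, edgeR). SDHA was at 843 and 855 in cjPGCLCs with ActA against 662 and 628 in somatic cells, and at 806 and 813 against 618 and 673 without ActA. The groups did not overlap, which held for 54.9% of all genes with ActA and 57.7% without. FOXA2, as given above, was higher in each of these cjPGCLC libraries than in each somatic one. A test of whether the difference between the fractions itself depended on ActA called no member (0.0253% of all genes higher and 0.038% lower). None had an unadjusted p under 0.05 and DESeq2 called 0.

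ActA was examined in pre-ME of both media. In pre-ME from TESR no member changed with ActA by edgeR or DESeq2, and none had an unadjusted p under 0.05 (5.63% of all genes higher and 3.2% lower). The median was 0.03, and fold changes spanned -0.31 to 0.29 on the log2 scale. In pre-ME from cjPSCM, 18 of 61 members were lower with ActA and 0 higher, against 9.54% and 11.4% of all genes, and none was higher at an unadjusted p under 0.05. DESeq2 gave 20 lower and 0 higher. The median was -0.35 (all genes -0.02). Of the 18, 10 belonged to complex I, 3 to complex II, 1 to complex IV and 4 to complex V.

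NDUFA4 led, from 272 and 498 counts without to 99.3 and 162 with ActA, or 3.03-fold lower (adjusted p = 0.00456, edgeR). NDUFB1 was at 355 and 564 without and 159 and 236 with ActA (2.37-fold lower, adjusted p = 0.0201, edgeR). SDHD was 2.35-fold lower (adjusted p = 0.00457, edgeR) and SDHC, with 989 and 1114 against 521 and 576 counts, 1.94-fold lower (adjusted p = 0.00129, edgeR), so both membrane anchors of complex II fell. NDUFA1, a small accessory subunit, went from 546 and 735 to 274 and 388 counts and fell by 0.98 on the log2 scale, and NDUFB3 fell by 0.97. The core subunits NDUFS7, NDUFS8 and NDUFV1, which had large decreases after sorting, had log2 fold changes of 0.06, 0.03 and 0.22 with ActA and did not pass the test. In these libraries the replicates of a group were far apart. Leaving out pre-ME with ActA replicate 1 or pre-ME without ActA replicate 2 left 1 lower member each, leaving out replicate 2 of the former left 10, and leaving out replicate 1 of the latter gave 29. Of the mesendoderm markers, 4 of 5 were higher with ActA (summed counts 622 to 935 against 186 to 241), and the part of this in the result was not tested.

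Whether the response to ActA differed between the media was tested as an interaction. No member passed (0.241% of all genes higher and 0.158% lower), although 18 had an unadjusted p under 0.05, all towards a stronger decrease in cjPSCM, and DESeq2 called 2 members. The call depended on the fit: without a low-count filter 8 members passed, and with the libraries of the comparison only 12 did. The smallest adjusted p was that of NDUFA4 (difference 1.77 ± 0.46 on the log2 scale, adjusted p = 0.107, edgeR). In the sorted fractions, added after the data had been seen, ActA changed no member in cjPGCLCs (1.37% of all genes higher and 1.16% lower) or in somatic cells (0.019% and 0.00633%). None had an unadjusted p under 0.05 in either, and DESeq2 called 0. The members' fold changes spanned -0.33 to 0.48 and -0.23 to 0.30.

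The change from pre-ME to sorted cells was accordingly compared between the ActA conditions. For cjPGCLCs 1 member passed, NDUFA4, whose change was 1.74 ± 0.47 higher on the log2 scale with ActA than without (adjusted p = 0.0459, edgeR, against 1.73% of all genes higher and 2.74% lower). It was called under 7 of 14 settings, with adjusted p from 1.1e-06 to 0.256. NDUFB1 (adjusted p = 0.0559, edgeR) and SDHC (adjusted p = 0.0585, edgeR) came next, and 15 members had an unadjusted p under 0.05, all in this direction. DESeq2 and upper-quartile scaling called 3 members each, the fit without a filter and that with the libraries of the comparison only 8 each, and the fit with the replicate block 0. For somatic cells no member passed (0.867% and 2.01% of all genes), 13 had an unadjusted p under 0.05, all in the same direction, and DESeq2 called 3, the fit without a filter 7 and that with the libraries of the comparison only 9.

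**Figure D4:**
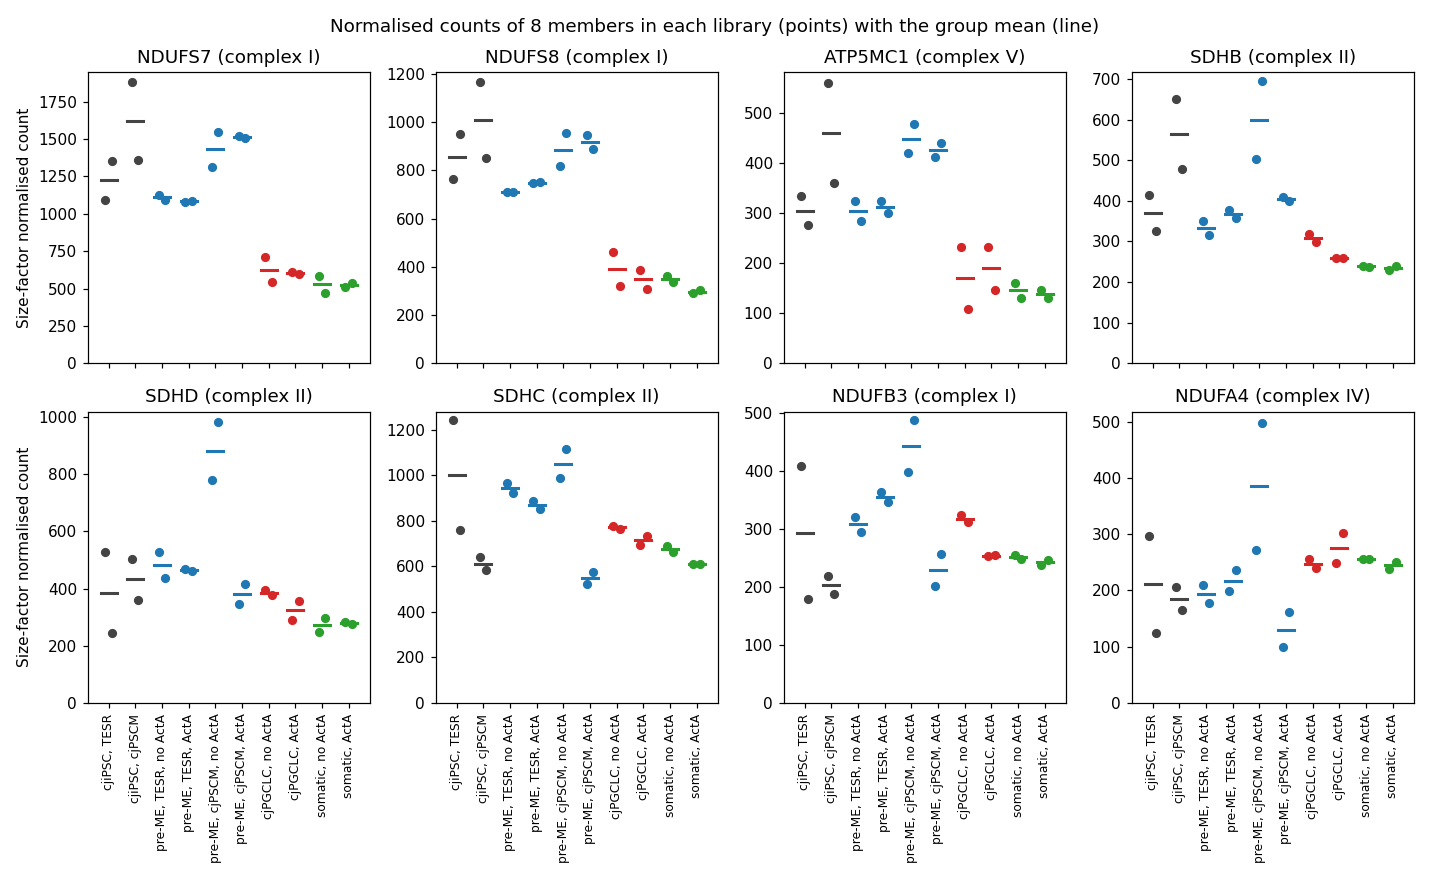
Size-factor normalised counts (y axis, from 0) of 8 members in the 10 conditions. Points are libraries and lines the mean of 2. NDUFS7, NDUFS8 and ATP5MC1 are lower in all sorted groups (red and green) than in all others, while SDHD and NDUFA4 peak in pre-ME from cjPSCM without ActA.

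Induction of pre-ME was compared with the cjiPSCs of the same medium. From TESR, 9 members were lower and 0 higher without ActA (19.2% and 17.4% of all genes), and 8 lower and 0 higher with ActA (17.1% and 17.3%), shares below those of all genes. At an unadjusted p under 0.05, 0 and 1 members were higher, and DESeq2 gave 11 and 9 lower members with none higher. These 2 comparisons share the cjiPSC libraries. NDUFV1 was lower with ActA (861 and 840 against 1156 and 1409 counts, log2 fold change -0.58 ± 0.15, adjusted p = 0.00609, edgeR), and NDUFS6 without (819 and 830 against 1069 and 1513, -0.63 ± 0.17, adjusted p = 0.00956, edgeR). The counts moved with single libraries. Without cjiPSCs in TESR replicate 1, 6 members were higher in each comparison, and without cjiPSCs in TESR replicate 2, 4 were lower without and 3 with ActA. Without pre-ME replicate 1, 2 were lower in each, and without pre-ME replicate 2, 0 without and 1 with ActA.

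From cjPSCM with ActA, 1 member was lower, ATP5F1A of the F1 head (-0.53 ± 0.17, adjusted p = 0.0449, edgeR), and 0 higher (10.3% and 7.42% of all genes). None was higher at an unadjusted p under 0.05, and DESeq2 gave 2 lower and 0 higher. Without cjiPSCs in cjPSCM replicate 2, 16 members were lower, and without any other library of the comparison 0 were. From cjPSCM without ActA, 10 members were higher and 4 lower (17.9% and 20.1% of all genes), again shares below those of all genes. The higher ones included NDUFB3 (398 and 487 counts against 219 and 188 in cjiPSCs, 2.21-fold, adjusted p = 0.00272, edgeR), SDHD (2.07-fold, adjusted p = 0.00499, edgeR) and SDHC (1.76-fold, adjusted p = 0.00163, edgeR), which were called under all 11 alternatives. NDUFA4, NDUFB5, NDUFC1, NDUFV2, NDUFA5, NDUFS1 and the peripheral stalk gene ATP5PF were the other 7, of which NDUFC1, NDUFV2, NDUFA5 and ATP5PF were not followed one by one under the alternatives. The lower ones were SDHA (843 and 880 against 1525 and 1173 counts, -0.62 ± 0.14, adjusted p = 0.00244, edgeR), NDUFV3, NDUFB11 and NDUFB8. The median over the members was 0.21 and turned to -0.03 without cjiPSCs in cjPSCM replicate 2, where 6 members were higher and 13 lower. Without replicate 1 of these cjiPSCs 16 were higher and 1 lower, without pre-ME replicate 1 19 and 1, and without pre-ME replicate 2 4 were higher. Within complex II, SDHA was thus called lower and both membrane anchors higher, while SDHB did not pass the test (0.11, adjusted p = 0.647, edgeR).

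Between cjiPSCs in cjPSCM and in TESR, 4 members were higher in cjPSCM and 2 lower (18.1% of all genes each way). SDHB (652 and 479 against 414 and 326 counts) and SDHA (1525 and 1173 against 886 and 907) were higher by 0.59 ± 0.18 (adjusted p = 0.0163, edgeR) and 0.57 ± 0.14 (adjusted p = 0.00365, edgeR). NDUFA8 and NDUFA11 were the other 2, and for NDUFA11 the libraries overlapped (1264 and 763 against 642 and 768). SDHC (641 and 583 against 1245 and 761) was lower, by 0.75 ± 0.17 (adjusted p = 0.00271, edgeR), as was NDUFA5. The counts moved with single cjiPSC libraries, from 0 higher without cjPSCM replicate 1 to 17 without cjPSCM replicate 2. NDUFA11 was not followed one by one under the alternatives, and none of the other named calls held under all settings.

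Other mitochondrial genes, listed by function, were set beside the members in the comparisons of sorted cells with pre-ME. Of the 74 mitochondrial ribosomal protein genes tested, 57 were lower in cjPGCLCs and 64 in somatic cells without ActA, with medians of -0.66 and -0.83, and 48 and 50 with ActA. Of 15 genes of protein import, chaperones and carriers, 13 and 14 were lower without ActA and 9 and 10 with ActA. TOMM40, the pore of the outer membrane translocase, fell by 1.71 on the log2 scale in somatic cells with ActA (adjusted p = 3.34e-06, edgeR). Of 13 TCA cycle genes, 6 and 10 were lower without and 7 and 9 with ActA, led by MDH2, the malate dehydrogenase of the matrix (-1.30 in somatic cells with ActA, adjusted p = 4.46e-06, edgeR), while SUCLA2 was higher with ActA in both. CYC1, the cytochrome c1 of complex III, and NDUFAB1, the acyl carrier protein of complex I, whose symbols the selection did not take in, fell in all 4.

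Of 12 tested regulators of mitochondrial and OXPHOS gene expression, 7 were lower in cjPGCLCs and 6 in somatic cells without ActA, and 8 and 7 with ActA. PPARGC1B, a coactivator of mitochondrial genes, fell from 378 and 285 counts in pre-ME without ActA to 66.9 and 80.4 in somatic cells (log2 fold change -2.19, adjusted p = 4.79e-06, edgeR). ESRRA, the nuclear receptor it acts with, fell in all 4 comparisons, by 0.67 to 1.59. In pre-ME from cjPSCM, in contrast to the members, ESRRA and POLRMT, the mitochondrial RNA polymerase, were higher with ActA (0.72 and 0.78). TFAM, which packages mitochondrial DNA, was higher in somatic cells with ActA (0.55, adjusted p = 0.00892, edgeR). Among factors that assemble the complexes, 9 and 10 of 17 for complex I were lower without ActA and 8 and 8 with ActA. The complex V assembly gene TMEM70 fell in all 4, by 0.81 to 1.68.

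The genes of mitochondrial DNA took 0.0295% to 0.132% of gene reads, whose origin was not tested, and varied widely between replicates. Of 11 tested, 0 were lower in cjPGCLCs and 1 in somatic cells without ActA, and 4 and 5 with ActA, where COX3, a catalytic-core subunit of complex IV, had log2 fold changes of -2.10 and -2.63. Cytosolic ribosomal protein genes, which have no part in respiration, were also lower: 70 and 59 of 79 without ActA, with medians of -0.65 and -0.58, and 54 and 58 with ActA. Their share of gene reads was 2.41% to 2.75% in the sorted libraries and 2.99% to 4.63% in the others. The members' decrease was not tested against that of these lists.

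**Figure D5:**
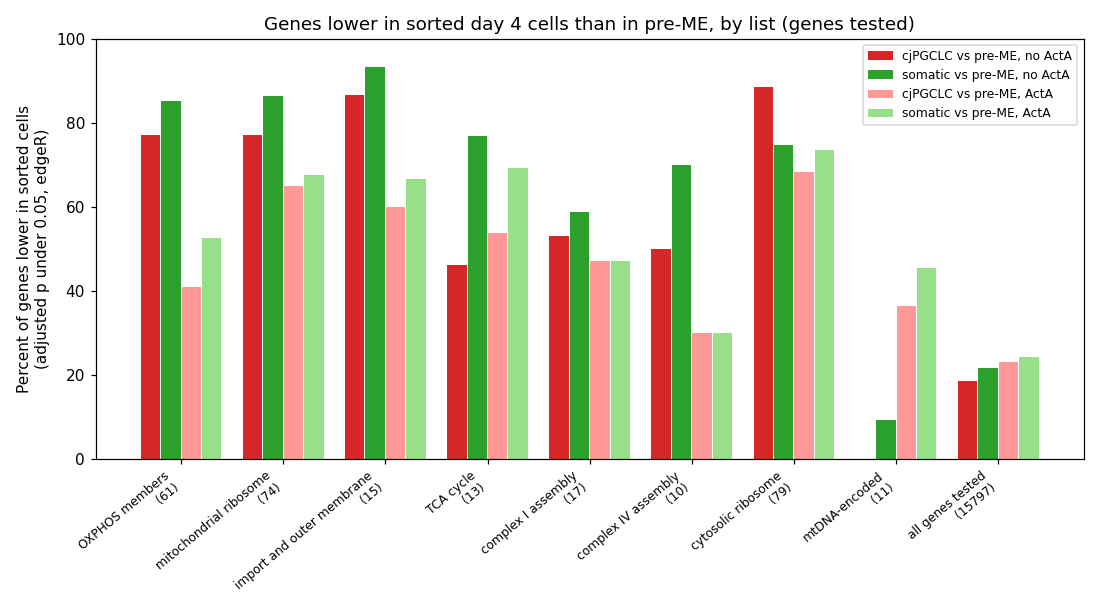
Percent of tested genes (y axis) lower in sorted day 4 cells than in pre-ME, by list, for cjPGCLCs (red) and somatic cells (green) without ActA (dark) and with ActA (light). The OXPHOS members (47, 52, 25 and 32 of 61) lie near the mitochondrial and cytosolic ribosomal protein genes without ActA and below both with ActA, and all 3 lists lie above all genes tested.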

How the data were processed

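RNA-seq of 20 libraries (10 groups of 2) was analysed. The authors made directional poly(A) libraries, checked reads with FastQC 0.11.8, mapped them with STAR 2.7.0a to calJac4 and counted them with HTSeq 0.11, as the paper and the submitters' processing notes state, and deposited raw read counts per gene. They also deposited size-factor normalised counts, a depth-scaled signal from DESeq2. How reads shared with pseudogenes were handled is not given in the sources used here, so small subunits with near-identical copies are uncertain. RNA was isolated with more than 1 kit, and which sample had which is not given. Deposited values were used as they are, the raw counts for tests and the normalised ones for levels, which are not compared between genes as lengths were not used. The 2 rows without a gene name were left out, and 10.6% to 23.2% of reads lay outside genes. This share was 10.6% and 13.3% in cjiPSCs in TESR and 12.2% and 19.3% in cjiPSCs in cjPSCM (replicates 1 and 2). In the other libraries it was 17.2% to 23.2%. Its part in the comparisons with cjiPSCs was not tested.

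Groups were taken from the labels. edgeR 4.0.16 (quasi-likelihood test, TMM, filterByExpr, R 4.3.3) was fitted to all 20 libraries, with contrasts between groups and Benjamini-Hochberg adjustment over 15797 genes; members were called at adjusted p under 0.05. The common dispersion was 0.0203 with 10 residual degrees of freedom. With 2 against 2 libraries an exact permutation test cannot go below p = 0.333, so none was used. Fits were tested on simulated data. Alternatives were DESeq2 1.42.0, its size factors, upper-quartile scaling, no filter, the libraries of a comparison only, a replicate block and leaving out each library.

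The members, the gene lists and the named genes were chosen with earlier results of these data known. Per comparison, members named were up to 5 called ones each way with the largest fold and non-overlapping libraries, any called beyond a log2 fold change of 2 (none was), fixed core and paired subunits, untested members and up to 2 called genes each way of the other lists. Members named beyond this, the grouping by role, the comparisons of sorted cells with cjiPSCs, of ActA within sorted cells and of the change from pre-ME between ActA conditions were chosen after their values were seen. Of 64 members, 62 matched a RefSeq table of another assembly (calJac240_pri), used for names only. Same-numbered libraries deviated together at correlations from -0.20 to 0.26, and the labels do not say that a number marks a shared batch. Some items are not reported here.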

Additional observations from a re-analysis of the deposited data

Results flagged for a closer look

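In the edgeR fit to all libraries, NDUFA4 was the 1 member whose change between stages differed between ActA conditions by a test of the difference itself, a comparison added after the data had been seen. Its change from pre-ME to cjPGCLCs was 1.74 ± 0.47 higher on the log2 scale with ActA than without (adjusted p = 0.0459, edgeR, 61 members among 15797 genes tested). This test shares its pre-ME libraries with the ActA comparison in pre-ME from cjPSCM, so the results are not independent. There NDUFA4 had a log2 fold change of -1.60 with ActA, and within cjPGCLCs it had 0.14. With ActA NDUFA4 went from 99.3 and 162 to 249 and 303 normalised counts, and without ActA from 272 and 498 to 256 and 240. The call for the difference between stages was lost without pre-ME with ActA replicate 1, without pre-ME without ActA replicate 2, without any 1 of the 4 cjPGCLC libraries and with the replicate block. Other fits called more members for this difference: 3 by DESeq2, 3 with upper-quartile scaling, 8 without a filter and 8 with the libraries of the comparison only.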

How the results depend on the processing

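No called value of a named member changed sign under any alternative run, and the relative levels of the complexes stayed within 1 SD with TMM-scaled CPM or a pseudocount of 10. Upper-quartile scaling moved the members' median most in pre-ME from cjPSCM without ActA against cjiPSCs (0.21 to 0.32), and turned it from 0.03 to -0.03 for ActA in TESR pre-ME, where no member was called. Of the results of named members, 1941 kept their side of the threshold, 54 lost and 50 gained the call under the settings that keep all replicates, and under the omission of a library 1355 kept it, 142 lost and 27 gained it. The causes were not tested.

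DESeq2 gave 1 lower member between the media, 2 lower in cjPSCM pre-ME with ActA against cjiPSCs, 2 higher for ActA by medium, and 3 higher each for the change to cjPGCLCs and to somatic cells by ActA. Its size factors in edgeR gave 1 lower between the media and 2 lower in cjPSCM pre-ME with ActA. Upper-quartile scaling gave 29 lower with ActA in cjPSCM pre-ME, 20 higher in cjPSCM pre-ME without ActA against cjiPSCs and 3 higher for the change to cjPGCLCs by ActA. Without a filter, 3 were lower in cjPSCM pre-ME with ActA, 16 higher in that without ActA, 2 higher in cjPGCLCs with ActA against cjiPSCs, 8 higher for ActA by medium and 8 and 7 higher for the change to cjPGCLCs and somatic cells by ActA. With the libraries of a comparison only, 0 were higher and 0 lower between the media, 2 higher and 1 lower with ActA in TESR pre-ME, 1 and 0 lower in TESR pre-ME with and without ActA, 0 lower in cjPSCM pre-ME with ActA, and 3 higher and 0 lower in that without. The same fit gave 2 and 4 higher in cjPGCLCs than in somatic cells with and without ActA, 5 higher in cjPGCLCs than in pre-ME with ActA, 12 higher for ActA by medium, 1 higher with ActA in cjPGCLCs, and 8 and 9 higher for the change to cjPGCLCs and somatic cells by ActA. Against cjiPSCs it gave 19 lower in cjPGCLCs with ActA, 17 lower and 0 higher in those without, and 22 lower in somatic cells without ActA.

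With the replicate block, 1 member was lower between the media, 0 in cjPSCM pre-ME with ActA against cjiPSCs, and 0 were higher for the change to cjPGCLCs by ActA; the other counts stayed within 1.5 times. The numbers are not shown to pair the libraries. Crossing the numbers where the correlation was under -0.1 gave 0 higher and 1 lower, 10 and 4, and 0 and 52, as without a block.

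Leaving out 1 library at a time gave these ranges. Between the media, higher members ranged from 0 to 17, lower ones from 0 to 6 and the median from -0.16 to 0.27 (-0.11 without TESR replicate 2). With ActA in cjPSCM pre-ME, lower ones ranged from 1 to 29 and the median from -0.59 to -0.17. In TESR pre-ME with ActA against cjiPSCs, higher ones ranged from 0 to 6, lower ones from 1 to 8 and the median from -0.28 to 0.00074, and without ActA from 0 to 6, 0 to 9 and -0.30 to 0.033. In cjPSCM pre-ME with ActA lower ones ranged from 0 to 16 and the median from -0.38 to 0.060, and without ActA higher ones from 4 to 19, lower ones from 1 to 13 and the median from -0.030 (-0.0079 without pre-ME replicate 2) to 0.39. In cjPGCLCs against pre-ME without ActA lower ones ranged from 28 to 52 and the median from -0.90 to -0.48, and with ActA higher ones from 0 to 2. In somatic cells lower ones ranged from 30 to 56 and the median from -0.95 to -0.59 without ActA, and with ActA lower ones from 19 to 26 and higher ones from 0 to 2. Against cjiPSCs lower ones ranged from 22 to 41 (median -0.73 to -0.28) in cjPGCLCs with ActA, from 21 to 42 (-0.75 to -0.29; higher 0 to 0) in those without, and the medians from -0.88 to -0.39 and -0.84 to -0.33 in somatic cells with and without ActA, with lower ones from 25 to 45 and 23 to 45. For ActA by medium the median ranged from 0.16 to 0.60, for the change to cjPGCLCs by ActA from 0.15 to 0.55 with 0 to 2 higher, and for that to somatic cells from 0.15 to 0.54 with 0 to 1 higher.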
